A study of Mus musculus with 18 samples.

Results

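The p53 target genes are 33 genes listed by name as targets of the transcription factor p53, with no threshold on their measured values. Whether p53 acts on each of them in these cells was not measured. This list and all others here were chosen with earlier results of these data known. Counts set beside the share of all genes are therefore descriptions and no independent support. The members are 33 of the 44349 genes of the deposited table. Of them, 32 are among the 14285 genes that passed a filter on low values and were tested. The remaining member, Dram1, an autophagy regulator, was below the filter, with values of 0.0990 to 2.12 FPKM in the 18 libraries. By role the list holds 7 genes of cell cycle arrest, 4 genes that feed back on p53 or on the kinase Akt, 11 genes of cell death, 5 genes of DNA repair and 6 genes of metabolism and stress.

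The protein p53 is kept scarce in unstressed cells because Mdm2, itself a p53 target, marks it for degradation. Damage and other stresses stabilise p53, which then binds paired copies of a short DNA element and raises genes that stop the cell cycle, repair DNA, limit growth signalling or start apoptosis. In haematopoietic stem cells p53 and its target p21, the product of Cdkn1a, are known for holding cells in quiescence and for removing damaged cells.

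RNA-seq was carried out on long-term haematopoietic stem cells (LT-HSC) from mouse bone marrow, which were sorted as lineage-negative, Sca-1+, c-Kit+, CD34-, Flk2- and CD49b-low. The mice were wild type or knockouts of DERARE, a retinoic acid response element distal to the Hoxb gene cluster. The 18 libraries fall into 6 groups of 3, and the labels give no strain, age or sex. The wild-type groups are WT, Wnt5a, with the label of the noncanonical Wnt ligand, and WT Reserve, from cells labelled reserve. The knockout groups are KO Ctrl, KO Wnt5a, described by the labels as a rescue, and KO Reserve. The labels word KO Ctrl both as knockout and as wild-type control, and it was taken as the knockout control because its sample name and its column carry the knockout. How and for how long Wnt5a was given is not stated, and neither is the meaning of fl in the column names of the reserve libraries, where the other columns carry wt or ko. No label says that replicates came from separate mice, so every p-value measures the spread between libraries, which may be technical.

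Promoter windows, from 250 bases before to 50 bases after an annotated start of a gene, were available from RefSeq (GRCm38.p6) for 25 of the 33 members. A p53 half-site, which reads the same on both strands, lay in the window of 10 of the 25 (40%), against 2582 of all 27025 gene symbols (9.55%). A full site, counted here as a pair of adjoining half-sites with at most 2 mismatches and the fixed C and G of each kept, lay in 3 of the 25 (12%), against 106 of all symbols (0.392%). These 3 windows are shown 5′ to 3′ on the strand of the gene because they hold the best matches in the list, and capitals mark the 20 bases of the site.
Cdkn1a: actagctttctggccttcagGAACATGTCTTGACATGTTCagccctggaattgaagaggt
Ccng1: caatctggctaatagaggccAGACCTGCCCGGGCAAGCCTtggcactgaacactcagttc
Ckap2: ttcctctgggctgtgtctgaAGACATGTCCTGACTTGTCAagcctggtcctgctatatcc
The stretch of Cdkn1a is chr17:29090908-29090967 on the + strand, and its site begins 51 bases before the start. The stretch of Ccng1 is chr11:40755442-40755501 on the - strand, with its site 195 bases before the start, and that of Ckap2 is chr8:22185983-22186042 on the - strand, with its site 203 bases before the start. The sites of Cdkn1a and Ccng1 have 1 mismatch and that of Ckap2 has 2, and no GENCODE gene covers any of the 3 sites. Mdm2 and Bax, the p53 ligase and the pore-forming protein, held a half-site alone, and are shown with its 10 bases in capitals since their levels are followed through the comparisons.
Mdm2: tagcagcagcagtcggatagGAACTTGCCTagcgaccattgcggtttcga
Bax: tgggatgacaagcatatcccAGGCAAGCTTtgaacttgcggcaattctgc
These lie at chr10:117710915-117710964 and chr7:45467070-45467119, both on the - strand. The half-site of Mdm2 is outside any annotated gene, and that of Bax is in an intron of the overlapping gene model Gm45808. A match to the element is a description of these letters and not a measured binding site.

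Levels are in FPKM, which scales fragments by the length of the transcript and the size of the library, and their smallest steps imply between 20500000 and 41000000 fragments per library. A 1 kb transcript with 3 fragments would then have 0.0732 to 0.146 FPKM, a limit of counting error only. Against the CD34- gate, Cd34 transcript stood at 300 to 437 FPKM in the 12 libraries outside the reserve set, 64.1 to 70.8 in WT Reserve and 8.30 to 14.6 in KO Reserve. Of the other gate genes, Kit was present in every library at 11.6 to 33.6 FPKM, Ly6a, which encodes Sca-1, was only at 20.1 to 25.3 in KO Reserve, and Flt3, which encodes Flk2, reached 12.4 to 18.7 in WT Reserve. The reserve libraries stood apart: 8 granulocyte markers summed to 2517 to 10898 FPKM there and to 104 to 217 elsewhere, 7 erythroid markers to 3321 to 6292 against 38.1 to 54.4, and 6 B lymphoid markers to 1428 to 2179 against 16.9 to 56.4. For that reason the 4 groups outside the reserve set are described first.

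In wild-type cells the list spanned more than 2 orders of magnitude. Bax was the highest at 330 ± 22.2 FPKM (SD, n = 3), followed by Cdkn1a at 211 ± 20.2 and Ccng1 at 142 ± 14.4. The other members with a WT mean of at least 50 FPKM were Aen, Phlda3, Ei24 and Mdm2, and 10 members had a WT mean under 5 FPKM. WT had the highest of the 4 group means for 21 of the 33 members, and KO Wnt5a the lowest for 20. Neither count was taken over all genes, so no share stands beside them. Taken as the median over the 32 tested members of the log2 difference from the WT mean, single libraries stood at -0.03 to 0.02 in WT, -0.38 to -0.17 in Wnt5a, -0.55 to -0.28 in KO Ctrl and -0.64 to -0.50 in KO Wnt5a. Both reserve groups were lower still, at -1.51 to -1.08 in WT Reserve and -1.55 to -1.48 in KO Reserve.

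**Figure D1:**
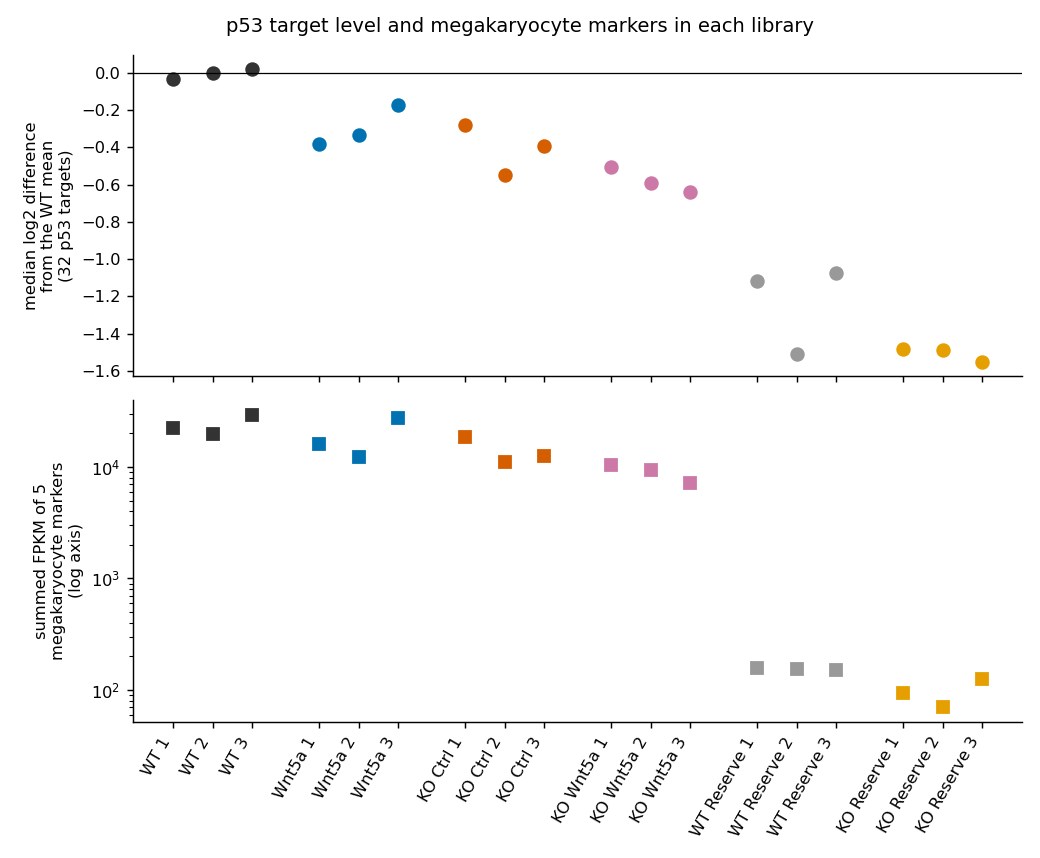
Upper panel: for each of the 18 libraries, the median log2 difference of FPKM + 1 from the WT mean over the 32 tested p53 targets. Lower panel: summed FPKM of 5 megakaryocyte markers in the same libraries, on a log axis; within Wnt5a, replicate 3 is highest in both panels, and in the reserve groups the sums are 70.0 to 157 FPKM.

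Loss of DERARE outside the reserve set was addressed by KO Ctrl against WT. Cdkn1a, Phlda3, Pmaip1, Eda2r, Plk2, Fas, Btg2 and Zmat3 were lower in KO Ctrl by 0.71 to 1.22 on the log2 scale, and no member was higher. These are 8 of the 32 tested members with a Benjamini-Hochberg adjusted p below 0.05 in limma, where 1.12% of all genes were lower and 1.53% higher. The median change of the list was -0.33, beside 0.04 for all genes tested. Without adjustment, at p below 0.05, 14 members were lower and 2 were higher, where 1019 and 1498 of all 14285 genes were. All 3 KO Ctrl libraries lay below all 3 WT libraries for 15 members, against 11.4% of all genes. Bulk RNA cannot tell fewer cells of a type from less RNA per cell, here or in any other comparison, and contrasts that share a group, such as WT, are not independent.

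The number of members called changed when single libraries were left out. Over all genes the calls changed too, from 378 to between 132 and 461. Among members, leaving out WT replicate 1 gave 3 calls, WT replicate 2 gave 4 and WT replicate 3 gave 2. Leaving out KO Ctrl replicate 2 gave 3 calls and KO Ctrl replicate 3 gave 5, while the fit lacking KO Ctrl replicate 1 had 11. Phlda3 and Pmaip1 passed in all 6 of these fits, Cdkn1a in 4, Btg2 in 3, Plk2 and Fas in 2, and Zmat3 and Eda2r in 1, with every estimate below 0. Megakaryocyte markers (Pf4, Itga2b, Gp1bb, Vwf and Cavin2, some of which LT-HSC also express) moved alongside: their summed level was 19916 to 29366 FPKM in WT and 11075 to 18413 in KO Ctrl, with none at 0. None of the 5 markers passed, and 3 were lower at p below 0.05 before adjustment. Mast cell and basophil markers summed to 75.0 to 84.4 FPKM in WT and 52.5 to 78.0 in KO Ctrl, where Prss34 was at 0, and 3 of 6 passed as lower. B lymphoid markers summed to 16.9 to 23.8 FPKM in WT and 49.6 to 56.4 in KO Ctrl, and 3 of 6 passed as higher. Of 4 tested gate genes Kit and Ly6a passed as higher. One more call each fell on LT-HSC markers (Hlf, higher) and macrophage and dendritic markers (Cd74, lower), and granulocyte markers had one in each direction (S100a9 higher, Mpo lower). The part of any of these markers in the result was not tested.

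In wild-type cells the Wnt5a label brought no member past the threshold. Cdkn1a showed the largest difference, -0.99 ± 0.21 (SE) with an adjusted p of 0.217 in limma. Neither direction held a called member, where 0.007% of all genes were lower and 0.042% higher. Before adjustment, 13 members were lower at p below 0.05, against 3.45% of all genes, and 1 was higher, against 4.43%; that gene was Ckap2, named after its value was seen. All 3 Wnt5a libraries lay below all 3 WT libraries for 15 members, where 9.71% of all genes did so. The median change was -0.31, beside 0.02 for all genes.

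By the list median Wnt5a replicate 3 was nearer to WT than the other Wnt5a libraries. Yet 28 of its 32 tested members were below the WT mean, against 23 in each of replicates 1 and 2. Replicate 3 was the highest of the 3 for 19 of the 33 members, a count that was not taken over all genes. Without replicate 3, 2 members, Cdkn1a and Phlda3, passed as lower, where 11 of all 14285 genes were lower and 5 higher. With libraries weighted by their quality 14 members were lower and 1 higher, where 709 and 832 of all genes were. The megakaryocyte sums were 16223, 12187 and 27292 FPKM in Wnt5a replicates 1, 2 and 3, so the same library was highest; no marker passed and 1 was lower at an unadjusted p below 0.05. Mast cell and basophil markers summed to 128 to 227 FPKM in Wnt5a and 75.0 to 84.4 in WT, and 2 of 6 passed as higher. The part of either cell type in these values was not tested.

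In knockout cells the Wnt5a label went with lower Cdkn1a, Phlda3 and Ccng1. They are 3 of the 32 tested members, where 0.707% of all genes were lower by limma and 0.315% higher, and no member was higher. Here 10 members were lower and none higher at an unadjusted p below 0.05, where 694 and 831 of all 14285 genes were. For 13 members all KO Wnt5a libraries lay below all KO Ctrl libraries, against 6.76% of all genes. The median change was -0.25, beside 0.04 for all genes. Cdkn1a and Phlda3 passed whichever library was left out. Ccng1 did not pass without KO Ctrl replicate 1, KO Wnt5a replicate 2 or KO Wnt5a replicate 3, each of which left 2 calls. The megakaryocyte sum was 7159 to 10320.2 FPKM in KO Wnt5a, and 2 of its 5 markers were lower by the test. Mast cell and basophil markers summed to 127 to 142 FPKM in KO Wnt5a and 52.5 to 78.0 in KO Ctrl, and 3 of 6 passed as higher. The part of either list in the result was not tested.

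The effect of Wnt5a was not shown to differ between genotypes. No member passed the interaction test in limma, and 1 of 32 had an unadjusted p below 0.05, where 0.07% of all genes passed and 6.04% had such a p. That member was Gdf15, a secreted stress cytokine, at -0.66 ± 0.29 (SE), named after its value was seen. For the 3 members called in knockout cells, the Wnt5a difference in knockout minus that in wild type was -0.45 ± 0.30 for Cdkn1a, -0.48 ± 0.28 for Phlda3 and -0.35 ± 0.24 for Ccng1. None of the other settings gave a call here either.

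Against the Wnt5a group, KO Wnt5a had lower Phlda3, Cdkn1a, Pmaip1, Ccng1 and Zmat3 and higher Xpc and Gadd45a. The 5 lower and 2 higher members stand against 1.82% and 1.41% of all genes, and the list median was -0.34 beside 0.05. Phlda3 had the largest change, -1.62 ± 0.20 (SE; limma, adjusted p = 0.000228). Both higher calls were lost after quantile normalization and after median-ratio scaling, which left 6 and 7 lower calls. Over all 14285 genes 294 and 321 were then lower, and 157 and 115 higher. Without Wnt5a replicate 3, KO Wnt5a replicate 2 or KO Wnt5a replicate 3, 4 calls were left, and Gadd45a passed in none of the 6 fits that left out a library. In this contrast 4 of 6 mast cell and basophil markers were lower and 1 higher, with sums of 127 to 142 FPKM in KO Wnt5a and 128 to 227 in Wnt5a. Lower calls also fell on 2 of 5 megakaryocyte and 2 of 8 granulocyte markers, and higher calls on 1 of 8 LT-HSC markers and 1 of 4 gate genes. The part of these markers was not tested.

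The combined contrast, KO Wnt5a against WT, held the most calls outside the reserve set. Of the 32 members 15 were lower and 3, Ddb2, Gadd45a and Xpc, were higher, where 5.03% of all genes were lower and 6.8% higher. The median change was -0.56, beside 0.09 for all genes. All 8 members that were lower in KO Ctrl against WT were among the 15, but these contrasts share the WT libraries. Of the 3 higher calls, quantile normalization kept none and median-ratio scaling kept Gadd45a, with 16 and 19 lower calls. Over all 14285 genes 854 and 1110 were then lower, and 573 and 495 higher. All 5 megakaryocyte markers were lower in this contrast. Higher calls fell on 2 of 6 B lymphoid, 2 of 3 T lymphoid, 2 of 8 LT-HSC and 1 of 6 mast cell markers and on 2 of 4 gate genes, and lower calls on 1 LT-HSC and 1 of 8 granulocyte markers. The part of these markers in the result was not tested.

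**Figure D2:**
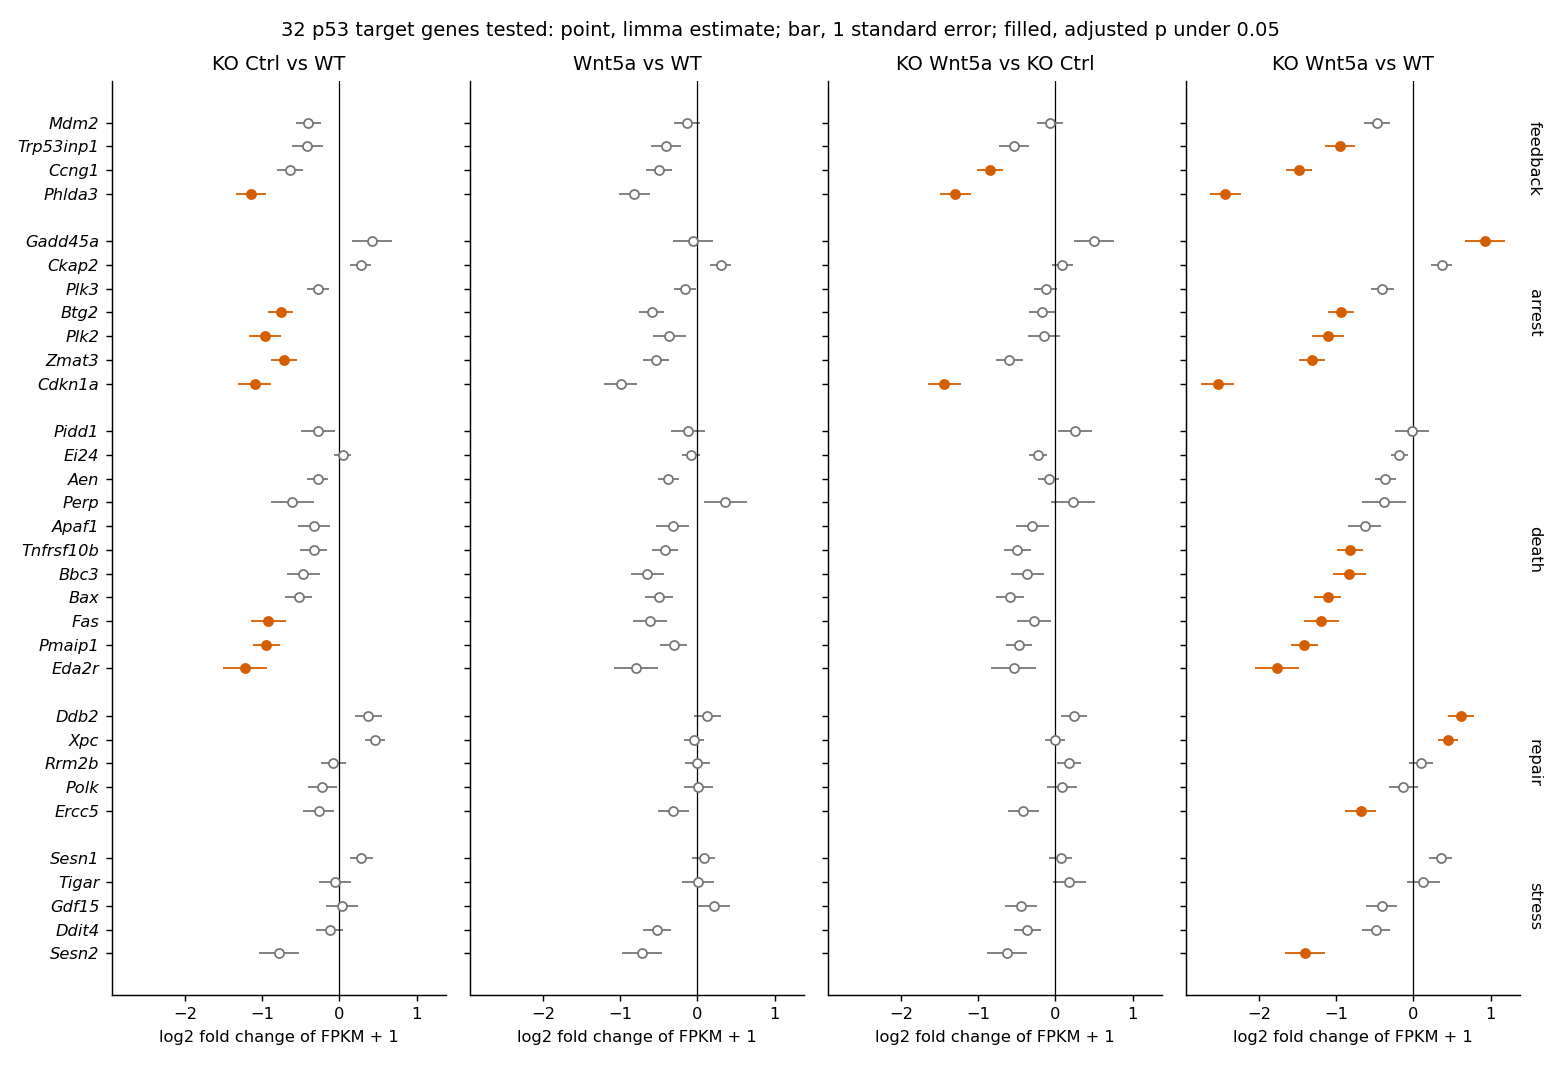
Log2 fold change of FPKM + 1 for the 32 tested p53 targets in 4 comparisons, by role. Points are limma estimates, bars 1 SE, and filled points have an adjusted p below 0.05: 8 in KO Ctrl against WT, 0 in Wnt5a against WT, 3 in KO Wnt5a against KO Ctrl and 18 in KO Wnt5a against WT; the 3 filled points to the right are Gadd45a, Ddb2 and Xpc.

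Of the arrest genes, 4 of 7 were lower in KO Ctrl than in WT and 1 was lower in KO Wnt5a than in KO Ctrl. Cdkn1a encodes p21, the inhibitor of cyclin-dependent kinases through which p53 stops the cell cycle. Cdkn1a read 194, 207 and 233 FPKM in WT, 82.7, 87.4 and 162 in Wnt5a, 113, 93.6 and 88.9 in KO Ctrl, and 34.7, 37.3 and 34.6 in KO Wnt5a. Every library of the other 3 groups was below every WT library, and the KO Wnt5a libraries, which differed from each other by less than 3 FPKM, were below all the rest of these 4 groups. The change was -1.09 ± 0.21 (SE) in KO Ctrl against WT (limma, adjusted p = 0.0106) and -1.44 ± 0.21 in KO Wnt5a against KO Ctrl (adjusted p = 0.00193). KO Wnt5a differed from WT by -2.53 ± 0.21, the largest change of any member in that contrast. An exon of the antisense model AC167363.2 overlaps Cdkn1a, and libraries without strand cannot separate the reads of the 2 genes.

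Btg2, an antiproliferative factor, read 45.2, 40.6 and 55.7 FPKM in WT, 26.1, 26.6 and 41.3 in Wnt5a, 27.6, 23.0 and 31.7 in KO Ctrl, and 22.9, 24.8 and 24.2 in KO Wnt5a. KO Ctrl lay wholly below WT and overlapped KO Wnt5a, while Wnt5a overlapped WT through replicate 3. Its change in KO Ctrl against WT was -0.76 ± 0.17 (SE; limma, adjusted p = 0.0196). Plk2, a polo-like kinase, read 5.25, 5.95 and 5.13 FPKM in WT, 4.005, 3.13 and 5.08 in Wnt5a, 2.08, 2.62 and 2.24 in KO Ctrl, and 2.54, 2.07 and 1.46 in KO Wnt5a. The knockout groups overlapped each other and lay below both wild-type groups, and the change in KO Ctrl was -0.96 ± 0.21 (adjusted p = 0.0195). Zmat3, a zinc finger protein that binds RNA, read 4.45, 4.58 and 5.12 FPKM in WT, 2.41, 2.71 and 3.87 in Wnt5a, 3.22, 2.27 and 2.05 in KO Ctrl, and 1.59, 1.06 and 1.29 in KO Wnt5a. WT was above every other library and KO Wnt5a below, and the change in KO Ctrl against WT was -0.71 ± 0.17 (adjusted p = 0.0328).

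The other 3 arrest genes were not called in KO Ctrl against WT. Plk3, another polo-like kinase, had group means of 6.25 to 8.59 FPKM and passed in none of the contrasts outside the reserve set. Ckap2, a microtubule-associated protein, was at 24.5 ± 1.82 FPKM (SD, n = 3) in WT and 29.8 ± 1.31 to 31.8 ± 0.391 in the other groups, and also passed in none. Gadd45a, a stress sensor that binds cell cycle and repair proteins, was low, at 1.31 to 2.14 FPKM in WT and 3.48 to 4.98 in KO Wnt5a. It was higher in KO Wnt5a than in WT by 0.93 ± 0.26 (SE; limma, adjusted p = 0.0288), but did not pass without WT replicate 1, WT replicate 3, KO Wnt5a replicate 2 or KO Wnt5a replicate 3, or after quantile normalization.

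Among the 4 feedback genes Phlda3 passed in the same contrasts of these 4 groups as Cdkn1a, and Mdm2 passed in none of them. Phlda3 encodes a protein that competes with Akt for membrane lipids and so restrains Akt. It read 51.2, 60.3 and 62.0 FPKM in WT, 27.2, 27.0 and 45.9 in Wnt5a, 22.4, 23.3 and 32.03 in KO Ctrl, and 11.9, 9.04 and 8.83 in KO Wnt5a. WT stood above all other libraries and KO Wnt5a below them, with Wnt5a and KO Ctrl overlapping in between. The change was -1.14 ± 0.20 (SE) in KO Ctrl against WT (limma, adjusted p = 0.00477) and -1.29 ± 0.20 in KO Wnt5a against KO Ctrl (adjusted p = 0.00215).

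Ccng1 encodes cyclin G1, which acts on Mdm2. It read 146, 126 and 153 FPKM in WT, 92.5, 90.6 and 119 in Wnt5a, 112, 87.7 and 75.3 in KO Ctrl, and 55.4, 45.2 and 49.4 in KO Wnt5a. WT and KO Wnt5a did not overlap any other group. Its change of -0.64 ± 0.17 (SE) in KO Ctrl against WT did not pass (limma, adjusted p = 0.0557), and that of -0.85 ± 0.17 in KO Wnt5a against KO Ctrl did (adjusted p = 0.0206). Mdm2 read 60.3, 44.1 and 54.9 FPKM in WT, 51.1, 43.5 and 49.9 in Wnt5a, 52.4, 30.1 and 39.4 in KO Ctrl, and 40.8, 39.8 and 33.1 in KO Wnt5a. Its groups overlapped except KO Wnt5a with WT and with Wnt5a, and none of these contrasts passed: the change was -0.40 ± 0.17 in KO Ctrl against WT (adjusted p = 0.217) and -0.07 ± 0.17 in KO Wnt5a against KO Ctrl (adjusted p = 0.944). Trp53inp1, a nuclear stress protein, fell from 5.45 ± 0.931 FPKM (SD, n = 3) in WT to 2.39 ± 0.903 in KO Wnt5a, by 0.95 ± 0.20 on the log2 scale (limma, adjusted p = 0.00549).

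The 11 cell death genes included the receptors Fas, Eda2r and Tnfrsf10b and mediators of the mitochondrial pathway. Of these 11, 3 were lower in KO Ctrl than in WT, none differed between KO Wnt5a and KO Ctrl by the limma test, with 3 lower at an unadjusted p below 0.05, and 6 were lower in KO Wnt5a than in WT. Fas read 10.8, 10.2 and 9.88 FPKM in WT, 5.43, 6.58 and 7.23 in Wnt5a, 5.85, 3 and 6.82 in KO Ctrl, and 3.91, 2.99 and 5.19 in KO Wnt5a. WT stood above the other 3 groups, among which KO Ctrl overlapped both others, and the change in KO Ctrl was -0.92 ± 0.22 (SE; limma, adjusted p = 0.0353). Eda2r, a death receptor of the TNF receptor family, read 13.7, 12.6 and 11.2 FPKM in WT, 5.66, 6.30 and 8.68 in Wnt5a, 7.55, 5.18 and 2.64 in KO Ctrl, and 3.47, 2.72 and 2.74 in KO Wnt5a. KO Ctrl was spread widely, from the range of KO Wnt5a to that of Wnt5a, and its change of -1.22 ± 0.29 (adjusted p = 0.0304) was the largest of the list in that contrast. Tnfrsf10b, a receptor of the ligand TRAIL, was at 2.44 ± 0.125 FPKM (SD, n = 3) in WT and 0.954 ± 0.257 in KO Wnt5a, a change of -0.82 ± 0.17 (SE; adjusted p = 0.00526).

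Pmaip1, which encodes the BH3-only protein NOXA, read 6.50, 5.19 and 5.99 FPKM in WT, 4.27, 4.20 and 5.25 in Wnt5a, 3.27, 2.29 and 2.25 in KO Ctrl, and 2.13, 1.30 and 1.40 in KO Wnt5a. The 2 wild-type groups overlapped, the knockout groups did not, and KO Ctrl was lower than WT by 0.94 on the log2 scale (-0.94 ± 0.17, SE; limma, adjusted p = 0.00608). Bbc3, which encodes the BH3-only protein PUMA, read 17.96, 18.7 and 21.1 FPKM in WT, 9.95, 11.1 and 15.2 in Wnt5a, 12.9, 13.1 and 14.9 in KO Ctrl, and 10.01, 10.4 and 10.7 in KO Wnt5a. WT lay above all other libraries, yet the change of -0.47 ± 0.21 in KO Ctrl did not pass (adjusted p = 0.268), and that of -0.83 ± 0.21 in KO Wnt5a against WT did (adjusted p = 0.0182), though not without WT replicate 3, KO Wnt5a replicate 1 or KO Wnt5a replicate 2. Bax read 316, 318 and 355 FPKM in WT, 219, 210 and 275 in Wnt5a, 230, 205 and 251 in KO Ctrl, and 157, 139 and 160 in KO Wnt5a. WT and KO Wnt5a did not overlap any other group, and only the contrast between them passed, at -1.11 ± 0.18 (adjusted p = 0.000922), with -0.53 ± 0.18 in KO Ctrl against WT (adjusted p = 0.127) and -0.58 ± 0.18 in KO Wnt5a against KO Ctrl (adjusted p = 0.176).

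The other 5 death genes passed in no contrast outside the reserve set. They are Aen, a nuclease of apoptosis, Apaf1, the scaffold of the apoptosome, Pidd1, a caspase-activating scaffold, Perp, a membrane protein of cell junctions, and Ei24, a protein of the endoplasmic reticulum. Their group means ran from 4.07 FPKM for Perp in KO Ctrl to 88.5 for Aen in WT. Exons of Gm45808 overlap Bax and those of Gm26787 overlap Ei24, and reads of such pairs cannot be told apart.

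**Figure D3:**
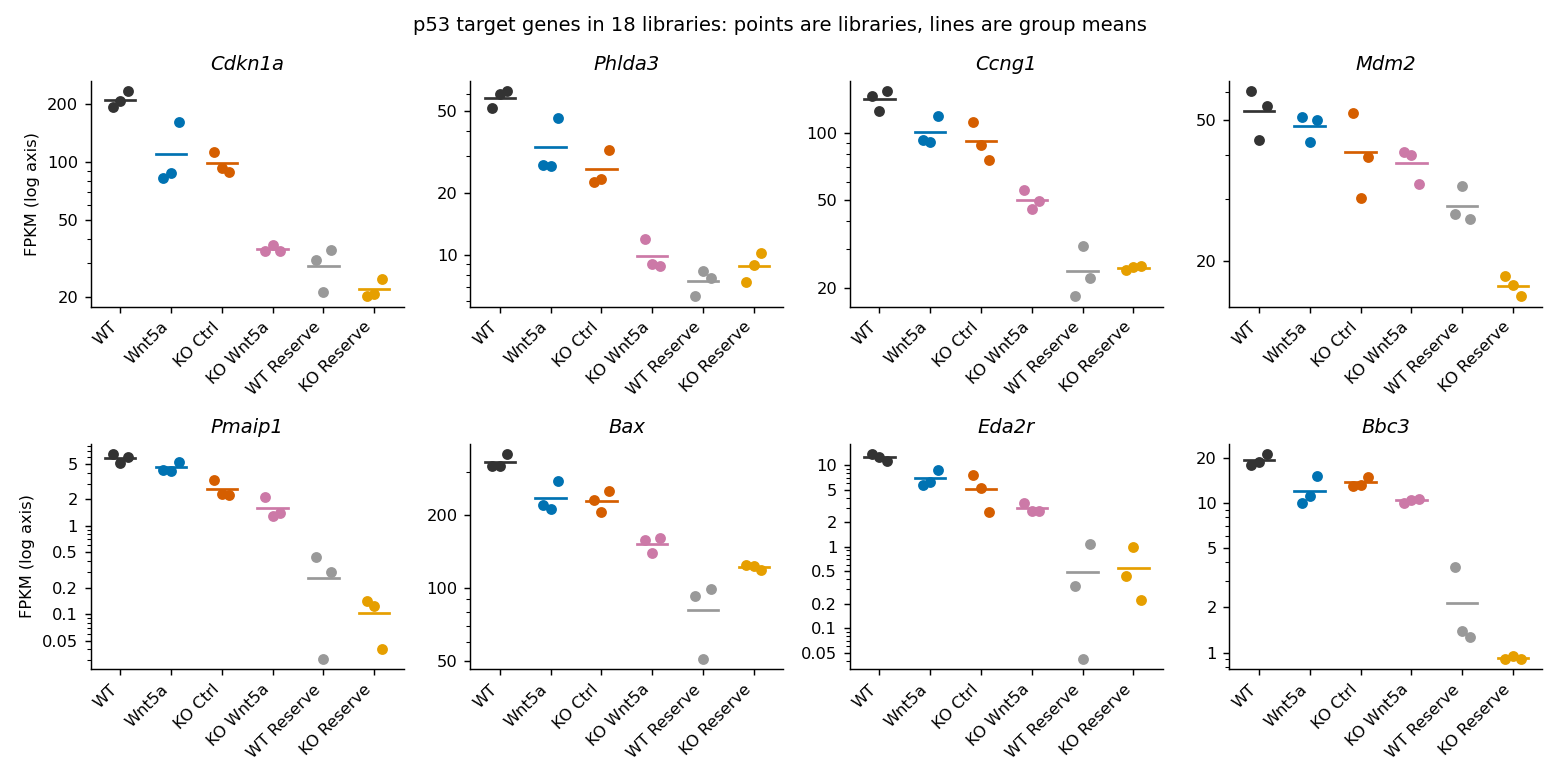
FPKM of 8 p53 targets in the 18 libraries by group, each panel on its own log axis. Points are libraries and lines group means. For Cdkn1a, Phlda3, Ccng1, Bax, Eda2r and Bbc3 all 3 WT libraries are above those of every other group. Mdm2 overlaps between WT and KO Ctrl (44.1 to 60.3 and 30.1 to 52.4 FPKM).

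The 5 DNA repair genes had calls in both directions. In KO Ctrl against WT and in KO Wnt5a against KO Ctrl none of the 5 passed in limma; an unadjusted p below 0.05 was reached by 2, both higher, in the former and by none in the latter. In KO Wnt5a against WT, Xpc and Ddb2, which recognise damage for nucleotide excision repair, were higher and Ercc5, an endonuclease of the same pathway, was lower. Xpc was at 4.99 ± 0.301 FPKM (SD, n = 3) in WT and 7.20 ± 0.743 in KO Wnt5a, a change of 0.45 ± 0.13 (SE; limma, adjusted p = 0.0312). Ddb2 was at 8.17 ± 1.51 and 13.1 ± 3.13 FPKM, a change of 0.61 ± 0.17 (adjusted p = 0.0283), and exons of Acp2 overlap it. Ercc5 was at 6.53 ± 1.89 and 3.63 ± 0.603 FPKM, a change of -0.68 ± 0.20 (adjusted p = 0.0357). Neither Xpc nor Ddb2 passed after quantile normalization or median-ratio scaling. Leaving out 1 library ended these calls often: Xpc passed in 1 of 6 such fits, without KO Wnt5a replicate 1, Ddb2 in 2, without WT replicate 2 or KO Wnt5a replicate 2, and Ercc5 in 2, without WT replicate 2 or KO Wnt5a replicate 1. Polk, a translesion polymerase, and Rrm2b, a ribonucleotide reductase subunit, passed in no contrast of these 4 groups, with group means of 3.94 to 4.76 and 3.98 to 4.65 FPKM.

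Of the 5 tested metabolism and stress genes only Sesn2 passed outside the reserve set. Sesn2 and Sesn1 encode sestrins, which restrain the growth kinase mTORC1. Sesn2 was at 10.3 ± 0.154 FPKM (SD, n = 3) in WT, 6.16 ± 2.57 in Wnt5a, 5.68 ± 1.46 in KO Ctrl and 3.27 ± 0.328 in KO Wnt5a. KO Wnt5a was lower than WT by 1.41 on the log2 scale (-1.41 ± 0.26, SE; limma, adjusted p = 0.00229). Sesn1 went the other way without passing, from 23.0 ± 1.10 FPKM in WT to 29.6 ± 2.70 in KO Wnt5a (0.35 ± 0.15, adjusted p = 0.143). Tigar, which lowers glycolytic flux, Ddit4, an inhibitor of mTORC1, and Gdf15 had group means of 0.927 to 3.88 FPKM and did not pass.

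Members with and without a half-site in the promoter window were counted side by side, with no test. A gene with more than 1 window counted if any of them held the half-site. By GENCODE, the half-sites of Sesn1 and Polk lie within the gene, far past its first start, and those of Aen, Ei24 and Gadd45a lie in exons of these genes. In KO Ctrl against WT 1 of the 10 members with a half-site in the window was lower and 5 of the 15 with a window but no half-site, where 1.12% of all genes were. For KO Wnt5a against WT the counts were 3 of 10 and 8 of 15, where 5.03% of all genes were lower. In WT Reserve against WT they were 6 of 10 and 14 of 15, where 27.9% of all genes were lower. An element outside the short windows would be missed, so no conclusion on the element is drawn from this split. Of the 3 members with a full site, Cdkn1a and Ccng1 were lower in KO Wnt5a than in WT and Ckap2 was not.

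Trp53 itself has no value in 5 of the 18 libraries and was not tested. Where given, it was at 150 to 247 FPKM, with 217 and 225 in WT, 185 and 218 in Wnt5a, 177 and 208 in KO Ctrl, and 208 and 224 in KO Wnt5a. Mdm4, a partner of Mdm2 that binds p53, was at 14.4 to 22.0 FPKM in these 4 groups. Cdkn2a, whose ARF product blocks Mdm2, was at 0.0620 to 0.350 FPKM in WT, Wnt5a and KO Ctrl and is listed at 0 in every library of KO Wnt5a and of the reserve groups.

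Regulators of p53 were called at a share near that of all genes. Of 22 tested, none passed in limma in KO Ctrl against WT, Wnt5a against WT or KO Wnt5a against KO Ctrl, where 6, 3 and 3 had an unadjusted p below 0.05, beside 17.6%, 7.88% and 10.7% of all genes. Between KO Wnt5a and WT 2 of the 22 were higher in the former, where 6.8% of all genes were: Prkdc, the catalytic subunit of DNA-PK, by 0.69 ± 0.17 (SE; adjusted p = 0.0138), and Chek2, a checkpoint kinase, by 0.51 ± 0.13 (adjusted p = 0.018). Among 17 further tested p53 targets outside the list, none passed in the same 3 contrasts in limma. At an unadjusted p below 0.05, 6 were lower and 1 higher in KO Ctrl against WT, where 1019 and 1498 of all 14285 genes were. In Wnt5a against WT 3 were lower and none higher, where 493 and 633 of all genes were. None reached such a p in KO Wnt5a against KO Ctrl. In KO Wnt5a against WT 5 of the 17 were lower and none higher, where 5.03% and 6.8% of all genes were. Among the 5 were Tob1, an antiproliferative factor, at -0.80 ± 0.18 (limma, adjusted p = 0.00896), and Rps27l, a ribosomal protein paralogue, at -0.42 ± 0.10 (adjusted p = 0.0102).

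Outside the reserve set, cell cycle genes that p53 represses through p21 and the DREAM complex had calls in the other direction. In KO Ctrl against WT 7 of 24 were higher, where 1.53% of all genes were, and none lower, and their median change was 0.40. Top2a, a topoisomerase of dividing cells, rose by 0.60 ± 0.09 (SE; limma, adjusted p = 0.000889), the mitotic kinesins Kif23 by 0.75 ± 0.12 (adjusted p = 0.00347) and Kif11 by 0.68 ± 0.12 (adjusted p = 0.00476), and the proliferation marker Mki67 by 0.62 ± 0.12 (adjusted p = 0.00832). Top2a read 97.6, 100.2 and 99.5 FPKM in WT and 155, 152 and 147 in KO Ctrl, so the groups did not overlap. In Wnt5a against WT none passed in limma, while 11 reached an unadjusted p below 0.05, all higher, with Mki67 at 0.46 ± 0.12 (adjusted p = 0.342). In KO Wnt5a against KO Ctrl none passed and none had an unadjusted p below 0.05, and the median change was 0.05. Against WT, 13 of 24 were higher in KO Wnt5a. The contrasts of reserve libraries with the others did not share this direction, though Cdkn1a was lower in both. In WT Reserve against WT 7 of 24 were higher and 7 lower, where 30.8% and 27.9% of all genes were. For KO Reserve against KO Ctrl 4 were higher and 17 lower, where 24.8% and 40.4% of all genes were. Their median change there was -0.51, beside -0.19 for all genes.

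Of the 5 other inhibitors of cyclin-dependent kinases, Cdkn2c was higher in KO Ctrl than in WT by 0.57 ± 0.13 (SE; limma, adjusted p = 0.0252). In KO Wnt5a against KO Ctrl Cdkn2b was lower by 1.98 on the log2 scale (-1.98 ± 0.33, adjusted p = 0.00527), from 4.50 to 0.349 FPKM, and Cdkn1c was higher by 1.22 ± 0.24 (adjusted p = 0.0179). Of 7 other genes of the BCL2 family, none passed in limma in KO Ctrl against WT, Wnt5a against WT or KO Wnt5a against KO Ctrl, with 3, 2 and 1 at an unadjusted p below 0.05, and Bcl2, an inhibitor of cell death, was higher in KO Wnt5a than in WT by 0.57 ± 0.18 (adjusted p = 0.0459).

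The reserve libraries carried most p53 targets of the list at lower levels. In WT Reserve against WT 23 of 32 members were lower and 5 higher, where 27.9% of all genes were lower and 30.8% higher, and the list median was -1.23 beside 0.06. In KO Reserve against KO Ctrl 24 were lower and 2 higher, against 40.4% and 24.8% of all genes, and the median was -1.17 beside -0.19. Not every member could show this freely, since 10 members did not reach 1 FPKM in every group. Of these, Pmaip1, Tnfrsf10b, Ddit4 and Gdf15 passed the filter only through libraries outside the reserve set. Of the 22 members that reached 1 FPKM in all 6 groups, 13 were lower and 5 higher in WT Reserve, against 30.3% and 29.3% of 10881 such genes, and 14 were lower and 2 higher in KO Reserve, against 44.0% and 22.8%. The 17 further tested p53 targets outside the list were more evenly split. In WT Reserve against WT 6 of them were lower and 4 higher, where 27.9% and 30.8% of all genes were, with a median of -0.21. For KO Reserve against KO Ctrl 8 were lower and 4 higher, where 40.4% and 24.8% of all genes were, with a median of -0.41. The reserve libraries also differed in cell markers: the 5 megakaryocyte markers summed to 151 to 157 FPKM in WT Reserve and 70.0 to 126 in KO Reserve, and all 5 were lower in both contrasts, with none at 0. Granulocyte, erythroid and B lymphoid markers were higher there, as given above, and the part of any of these cells in the p53 target levels was not tested.

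Ei24 and Eda2r changed most in WT Reserve, Ei24 from 54.5 to 58.6 FPKM in WT to 4.80 to 5.81 (-3.17 ± 0.11, SE; limma, adjusted p = 6.02e-13) and Eda2r to 0.329, 0.0420 and 1.08 FPKM (-3.24 ± 0.29, adjusted p = 5.57e-08). Cdkn1a read 31.0, 21.1 and 34.9 FPKM in WT Reserve and 20.1, 20.6 and 24.9 in KO Reserve. Both groups lay below every other library except for WT Reserve replicate 3, which was within the range of KO Wnt5a. Phlda3 read 6.30, 8.35 and 7.76 FPKM in WT Reserve and 7.42, 8.96 and 10.2 in KO Reserve, and Ccng1 read 18.4, 31.0 and 22.2 and 24.2, 25.0 and 25.2. For these 2 genes the reserve groups overlapped each other. Bbc3 fell most in KO Reserve against KO Ctrl, by 2.93 on the log2 scale (-2.93 ± 0.21, adjusted p = 3.25e-09), with 3.72, 1.40 and 1.28 FPKM in WT Reserve and 0.907, 0.946 and 0.905 in KO Reserve.

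The other members described library by library were also low in reserve cells. Btg2 read 9.34, 9.25 and 10.6 FPKM in WT Reserve and 4.99, 4.10 and 4.50 in KO Reserve, Mdm2 27.2, 32.5 and 26.2 and 18.2, 17.1 and 15.9, and Fas 2.13, 1.51 and 2.28 and 1.07, 0.614 and 1.09. In each of these 3 genes KO Reserve was wholly below WT Reserve. Plk2 was at 3.17, 1.27 and 2.04 FPKM in WT Reserve and 0.597, 0.350 and 0.224 in KO Reserve, and Zmat3 at 0.425, 0.558 and 0.817 and 0.882, 1.24 and 0.982, the reverse order. Pmaip1, at 0.442, 0.0310 and 0.303 FPKM and 0.141, 0.124 and 0.0400, and Eda2r, at 0.439, 0.995 and 0.225 in KO Reserve, came near the level of a few fragments. Gdf15 is listed at 0 in KO Reserve replicate 2.

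Gadd45a, Rrm2b, Xpc, Ddb2 and Sesn1 were the 5 members that rose in WT Reserve. Gadd45a rose by 2.53 ± 0.26 (SE; limma, adjusted p = 3.29e-07), from 1.31 to 2.14 FPKM in WT to 14.7, 12.4 and 16.3, and stood at 24.3, 25.4 and 24.1 in KO Reserve. The 3 KO Reserve libraries were the highest of all 18, and exons of the antisense gene E230016M11Rik overlap Gadd45a. Rrm2b rose by 1.10 ± 0.16 in WT Reserve (adjusted p = 1.81e-05) and by 0.73 ± 0.16 in KO Reserve (adjusted p = 0.000754). Ddb2 rose by 1.27 ± 0.17 (adjusted p = 7.68e-06), Xpc by 0.95 ± 0.13 (adjusted p = 7.33e-06) and Sesn1 by 0.63 ± 0.15 (adjusted p = 0.00166) in WT Reserve. In KO Reserve against KO Ctrl Ddb2 did not pass, and Xpc and Sesn1 fell by 0.62 and 1.16 on the log2 scale. After quantile normalization or median-ratio scaling 5 members were higher in KO Reserve against KO Ctrl, with 22 and 23 lower. Over all 14285 genes these scalings gave 4512 and 4893 higher calls and 4677 and 4494 lower.

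**Figure D4:**
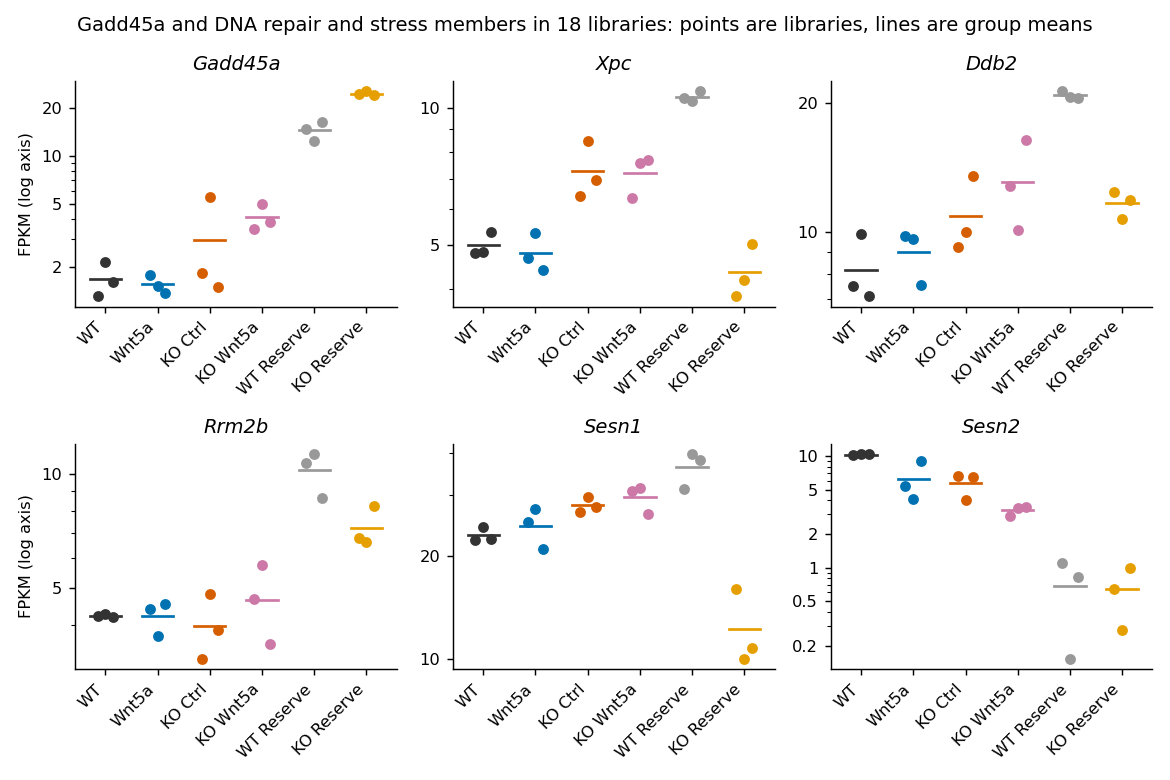
FPKM of Gadd45a, Xpc, Ddb2, Rrm2b, Sesn1 and Sesn2 in the 18 libraries by group, each panel on its own log axis, points libraries and lines group means. Xpc, Ddb2, Rrm2b and Sesn1 have their highest group mean in WT Reserve, Gadd45a is highest in KO Reserve at 24.1 to 25.4 FPKM, and Sesn2 is lowest in the reserve groups.

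Within the reserve set, KO Reserve against WT Reserve gave 11 lower and 4 higher members, where 29.3% of all genes were lower and 12% higher, so the counts were near the background. The median change was -0.24, beside -0.17 for all genes. Scaling decided the split: quantile normalization moved the median of all genes to 0.03 and gave 7 lower and 7 higher members, and median-ratio scaling moved it to 0.02 and gave 8 and 6. Directions in this contrast and in the others with KO Reserve are therefore relative to a shift of that size. Over all 14285 genes, quantile normalization gave 2764 lower and 3154 higher calls in this contrast, and median-ratio scaling 2800 and 3166. Sesn1 changed most, from 31.3, 39.6 and 38.1 FPKM in WT Reserve to 15.97, 9.996 and 10.8 in KO Reserve (-1.51 ± 0.15, SE; limma, adjusted p = 1.21e-06). Xpc fell from 10.5, 10.3 and 10.9 to 3.86, 4.19 and 5.03 FPKM (-1.12 ± 0.13, adjusted p = 5.14e-06). Bax was among the 4 higher members, with 92.5, 51.1 and 99.2 FPKM in WT Reserve and 125, 123 and 119 in KO Reserve (0.65 ± 0.18, adjusted p = 0.00846), and the groups did not overlap. LT-HSC markers differed as well: 7 of 8 were lower in KO Reserve, their sum being 83.5 to 97.6 FPKM against 181 to 223, and macrophage and dendritic markers summed to 17.7 to 33.9 against 273 to 336. Erythroid markers summed to 5151 to 6292 FPKM in KO Reserve against 3321 to 4450, and 5 of 7 were higher. Granulocyte markers summed to 2517 to 3742 FPKM against 4955 to 10898, and 6 of 8 were lower. All 3 tested T lymphoid markers were lower too, with sums of 25.7 to 30.6 FPKM against 69.7 to 116, as were 3 of 4 gate genes, 2 of 5 megakaryocyte, 2 of 6 mast cell and 1 of 6 B lymphoid markers. The part of such cells in these differences was not tested.

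The effect of genotype differed between reserve and other cells for 11 members. The difference of the knockout effects, inside minus outside the reserve set, was above 0 for 8 members and below 0 for 3, where 8.03% and 22.9% of all genes passed in these directions. Of the 8, 5 were cell death genes (Bax, Eda2r, Apaf1, Pmaip1 and Ei24), and Phlda3, Ccng1 and Zmat3 made up the rest. Eda2r, Pmaip1 and Zmat3 stood at only 0.0310 to 1.24 FPKM in the reserve libraries, which left little room for a decrease there on this scale, so that their direction is no finding. With a pseudocount of 0.1 Eda2r and Pmaip1 were not called. Xpc, Ddb2 and Sesn1 were the 3 below 0. Phlda3 was lower in KO Ctrl than in WT, at 25.9 ± 5.31 against 57.8 ± 5.80 FPKM (SD, n = 3), and not in KO Reserve, at 8.86 ± 1.39 against 7.47 ± 1.05, an interaction of 1.36 ± 0.28 (SE; limma, adjusted p = 0.00161). Sesn1 had the largest interaction, -1.80 ± 0.21 (adjusted p = 1.84e-05), being at 28.2 ± 1.45 against 23.0 ± 1.10 FPKM outside and 12.3 ± 3.24 against 36.3 ± 4.43 inside the reserve set. Quantile normalization moved the median of all genes from -0.22 to 0.05. It called 12 members above 0 and 3 below, where 2155 and 1969 of all 14285 genes were called. Median-ratio scaling moved the median to 0.04 and called 11 and 3 members, where 2375 and 1952 of all genes were called.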

How the data were processed

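Per the labels' protocols, cells were sorted into 96-well plates and libraries came from a SMARTer low-input kit with Nextera chemistry, which keeps no strand. Per the submitters' processing notes, Cufflinks, TopHat2 2.0.10 and CASAVA 1.8.2 were used on build mm10. The authors deposited 1 table of FPKM for 44349 genes in 18 libraries; its header names no unit, and FPKM was taken from the values and from Cufflinks. Trp53 is 1 of 16 genes, with 33 cells, that lack values and were not tested. GENCODE M21 (GRCm38, the assembly of mm10) gave names and positions for 43938 identifiers.

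Values were analysed as log2(FPKM + 1), so changes of low genes are understated. The 14285 genes that reached 1 FPKM in 3 or more of 18 libraries were fitted with limma 3.58.1 (R 4.3.3), 1 mean per group over all 18 libraries, with trend and robust moderation. Calls used a Benjamini-Hochberg adjusted p below 0.05 over all genes tested, in 8 contrasts of 2 groups and 2 interactions; list medians are descriptions. Samples were grouped by the labels. One gene of the megakaryocyte marker list is not reported here, and sums and counts leave it out. Replicate numbers were not used as a block, since the labels give them no meaning. The deposited table holds no counts: depth came from the smallest steps of 7087 genes with a single transcript. Correlations between replicates were 0.9324 to 0.9679. The fit was tested on simulated data.

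The members and all lists were chosen with earlier results of these data known. Values in every library are given for members called in KO Ctrl against WT, Wnt5a against WT or KO Wnt5a against KO Ctrl and for Cdkn1a, Mdm2, Bax, Bbc3, Phlda3 and Ccng1; other members are given by range, with the largest change per contrast, up to 4 genes of each other list by smallest p, and Trp53, Mdm4 and Cdkn2a by level. Alternatives were 2 other scalings, a replicate block, a 0.1 pseudocount, no filter or one on a mean of 5 FPKM, plain moderation, weights for libraries, a fit of a contrast's own libraries and leaving out each library. A fit of the 12 libraries without the reserve label was chosen after seeing the data. Summaries used pandas 2.3.3 and numpy 2.4.6 in Python 3.11.15, and plots matplotlib 3.10.9.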

Additional observations from a re-analysis of the deposited data

Results flagged for a closer look

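For 11 p53 targets the effect of the knockout differed between the reserve set and the other cells by a test of the difference itself (limma, adjusted p below 0.05; knockout effect inside minus outside the reserve set, on the log2 scale of FPKM + 1). Of 32 tested members 8 were above 0 and 3 below, where 8.03% and 22.9% of all genes passed in these directions. The difference was above 0 for Phlda3 (1.36 ± 0.28, SE; adjusted p = 0.00161), Eda2r (1.32 ± 0.41; 0.0211), Bax (1.17 ± 0.25; 0.00231), Zmat3 (1.06 ± 0.24; 0.00315), Apaf1 (0.944 ± 0.30; 0.025), Pmaip1 (0.764 ± 0.24; 0.0238), Ccng1 (0.72 ± 0.24; 0.0315) and Ei24 (0.507 ± 0.16; 0.0239). It was below 0 for Sesn1 (-1.80 ± 0.21; 1.84e-05), Xpc (-1.58 ± 0.18; 1.49e-05) and Ddb2 (-1.16 ± 0.24; 0.00175). Eda2r, Pmaip1 and Zmat3 stood at 0.0310 to 1.24 FPKM in the reserve libraries, which left little room for a decrease there, and Eda2r and Pmaip1 were not called with a pseudocount of 0.1. With each of the 12 libraries left out in turn, Eda2r passed in 10 of 12 fits, failing without KO Ctrl replicate 3 or KO Reserve replicate 2. Apaf1, Ei24 and Pmaip1 passed in 7 and Ccng1 in 4, and the other 6 genes passed in all 12. Apaf1 was lost without WT replicate 3, KO Ctrl replicate 2, WT Reserve replicate 1 or 3, or KO Reserve replicate 3, and Ei24 without WT replicate 2, KO Ctrl replicate 1, WT Reserve replicate 3, or KO Reserve replicate 2 or 3. Pmaip1 was lost without WT replicate 1 or 3, KO Ctrl replicate 2 or 3, or WT Reserve replicate 2, and Ccng1 passed only without WT replicate 2, KO Ctrl replicate 1, WT Reserve replicate 2 or KO Reserve replicate 1.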

How the results depend on the processing

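Of 336 recomputed counts and medians, 298 stayed within 1.5 times the reported count or within 1 SD between libraries of the reported median. The 8 calls of KO Ctrl against WT became 3 with a pseudocount of 0.1, 3 without a filter, 4 with a mean of at least 5 FPKM, 13 with library weights and 5 with only its own libraries, and 2 to 11 leaving out 1 library. All 8 were among the 10 calls of the 12-library fit. Over all genes the calls of this contrast went from 378 to 1480 with library weights and 769 in the 12-library fit. With library weights the calls numbered 15 in Wnt5a against WT and 11 in KO Wnt5a against Wnt5a. All genes called then numbered 1541 and 1548 of 14285. Leaving out 1 library gave 0 to 2 and 4 to 7 members. A mean of at least 5 FPKM, which tests fewer members, left 9 calls in KO Wnt5a against WT, 17 in WT Reserve against WT and 16 in KO Reserve against KO Ctrl. The same filter moved medians to -0.13 in Wnt5a against WT, -0.085 in KO Wnt5a against KO Ctrl, -0.18 in KO Wnt5a against Wnt5a, -0.38 in KO Wnt5a against WT, -0.37 in KO Reserve against WT Reserve, -0.86 in WT Reserve against WT and -0.15 in the interaction of genotype and reserve, which changed its sign. A pseudocount of 0.1 moved them to -0.74 in KO Wnt5a against WT, -0.37 in KO Reserve against WT Reserve, -1.97 in WT Reserve against WT and -1.64 in KO Reserve against KO Ctrl. Quantile normalization and median-ratio scaling gave medians of -0.028 and -0.11 in KO Reserve against WT Reserve, -1.01 and -0.91 in KO Reserve against KO Ctrl, and 0.49 and 0.33 in the interaction of genotype and reserve; quantile normalization gave -1.47 in WT Reserve against WT. Leaving out 1 library gave medians of 0.028 to 0.25 in that interaction, the lowest without KO Ctrl replicate 2. The change of Mdm2 in KO Wnt5a against KO Ctrl turned to 0.034 with library weights. Leaving out 1 library gave -0.26 to 0.13, above 0 at 0.13 for KO Ctrl replicate 1 and 0.023 for KO Wnt5a replicate 3. Where a setting moved a value, the cause was not tested unless named.

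With the replicate number as a block, KO Ctrl against WT kept its 8 calls, Wnt5a against WT had 0 and KO Wnt5a against KO Ctrl kept its 3. Same-numbered libraries did not deviate together, with correlations of -0.09 to 0.08 over 24 pairs, so the numbers were not taken as a pairing. Members near 0.1 FPKM, such as Pmaip1 in the reserve groups, are limited by depth.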
